A study of Mus musculus with 8 samples.

Results

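Broad peaks of acetylation of histone H3 at lysine 27 (H3K27ac), each called over 10000 bp or more, were followed across 8 libraries. The cells were the mouse pancreatic acinar line 266-6. Merging overlapping peaks of all libraries (1 bp sufficed) gave 33920 regions, of which the 245 (0.722%) with a peak of 10000 bp or longer in any library were kept as broad domains. The length of a peak therefore chose the domains. Covered length, the number of base pairs of a domain that lie under peaks of a library, is closely tied to that choice and is given below as a description.

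H3K27ac marks active promoters and enhancers. Most of its peaks are short and flank a single nucleosome-depleted site, whereas broad domains join many neighbouring sites into 1 acetylated stretch. Such domains, described elsewhere as stretch enhancers or super-enhancers, are known to lie at genes that define a cell type. EGF is a ligand that activates the EGF receptor and the ERK pathway, which in acinar cells goes with loss of acinar traits. Arid1a belongs to the SWI/SNF remodelling complex, which opens chromatin at enhancers, and its subunit helps the complex bind DNA.

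All cells were transfected with siRNA at 25 nM for 48 h and starved of serum overnight before treatment for 8 h. The control group received the non-targeting siRNA NT5 and a vehicle of 0.1% BSA, and the EGF group the same siRNA and EGF at 40 ng/ml. The knockdown group received siRNA against ARID1A and vehicle, and the knockdown group with EGF received siRNA against ARID1A and EGF at 40 ng/ml. Each group had 2 libraries, called 1 and 2 after their labels. The labels list a pair of ARID1A siRNAs without saying whether they were mixed or match the mouse gene, and its level was not measured in these files, so knockdown names the siRNA given. Nothing in the labels says that duplicates came from separate cultures, so the spread behind each test is that of these libraries and may be technical.

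Read depth is unknown, and total covered length separated the libraries unevenly. The EGF libraries, both knockdown libraries with EGF and control library 1 had peaks over 33.9 to 36.8 Mb, while control library 2 and the knockdown libraries had peaks over 46.3 to 48.7 Mb. Control library 1 thus went with the EGF-treated libraries in its total. The part of depth in the values below was not tested, and control library 1 is therefore also set beside the EGF-treated libraries on its own. Positions are in mouse build mm9, for which no gene models were used here. Domains are therefore named by position, none is tied to a gene, and the labelled cell type was not checked against marker genes.

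The 245 domains spanned 3.72 Mb, or 5.84% of the merged length of all regions. Their median length was 13471 bp, with quartiles of 11402 and 16426 bp, and 157 were shorter than 15000 bp. The longest, on chromosome 11 from 74259233 to 74322296, spanned 63064 bp, 4.68 times the median. A further domain on chromosome 8 from 124804322 to 124857484 spanned 53163 bp. Of the chromosome 8 domain 86.5% lay under peaks of all 8 libraries, against 52.3% of the chromosome 11 domain.

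Presence of a peak did not vary: all 245 domains held at least 1 peak in each of the 8 libraries, so all passed the later filter for tests (peaks in 2 libraries or more). In comparison, 98.9% of the 1256 regions whose longest peak measured 5000 bp or more but under 10000 bp (wide regions) and 49.0% of all regions had a peak in every library. Over all domains, 60.4% of the length was covered in all 8 libraries, against 51.4% in the wide regions with a peak in all of them. The covered core ranged from 14.8% of a domain on chromosome 4 from 45496253 to 45513786 to 91.4% of one on chromosome 9 from 74695109 to 74705396. Only 5.30% of the domain length lay under a peak of 1 library alone.

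A length of 10000 bp in a single peak was reached in all 8 libraries by 37 domains and in 1 library alone by 71. Of those 71, 48 reached it in knockdown library 2, 13 in control library 2, 8 in knockdown library 1 and 2 in library 2 of the knockdown with EGF. None of the EGF libraries, control library 1 or library 1 of the knockdown with EGF held such a domain alone. The rule is thus filled largely by the libraries with the greatest covered length. The number of domains with a 10000 bp peak was 70 and 147 in the control libraries, 67 and 69 in the EGF libraries, 158 and 204 in the knockdown libraries, and 87 and 90 in the knockdown libraries with EGF. The EGF duplicates differed by 2 domains and the control duplicates by 77.

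**Figure D1:**
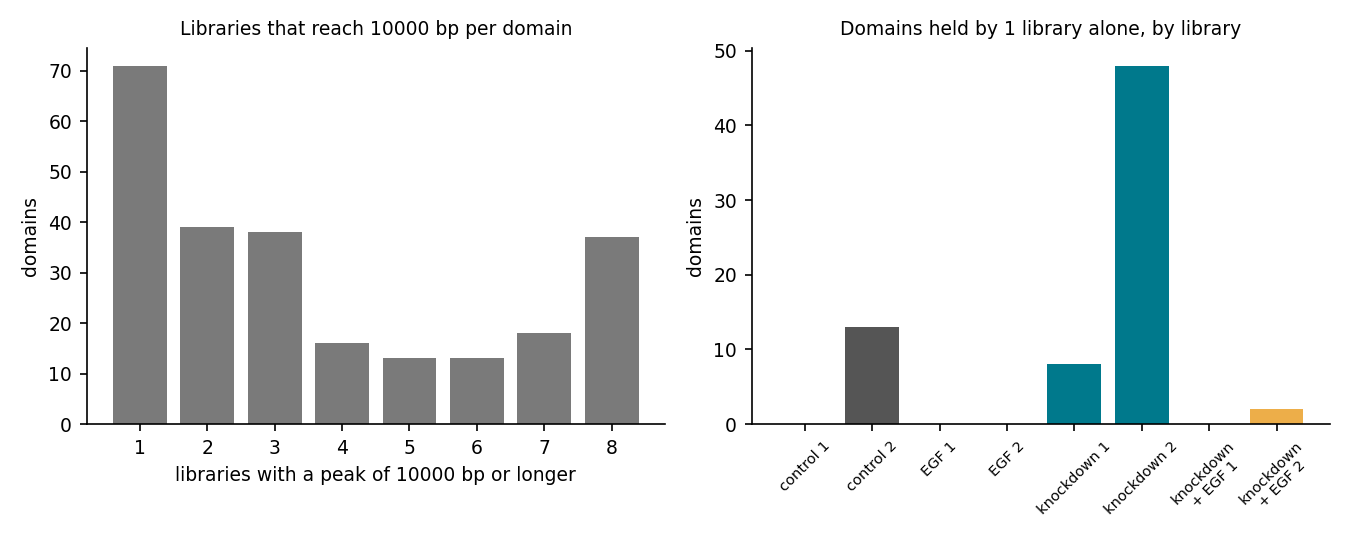
The left panel plots the number of domains (y axis) against the number of libraries with a peak of 10000 bp or longer in the domain (x axis). The right panel plots, for the 71 domains in which 1 library alone reached that length, how many each library held, with 48 of them in knockdown library 2.

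Members near the limit differ little from regions left out. The domain with the shortest qualifying peak, on chromosome 13 from 98968705 to 98979749, owed its place to a peak of 10013 bp, and the next ones, at 23803248 to 23813372 on chromosome 10 and at 140202877 to 140212924 on chromosome 5, to peaks of 10014 and 10048 bp. All 3 reached the limit in knockdown library 2 alone. Just outside were a region of chromosome 8 from 119855061 to 119865435, with a longest peak of 9970 bp, and one of chromosome 4 from 45794957 to 45805386, with 9969 bp. The next, at 115827356 to 115837319 on chromosome 6, reached 9964 bp. These values show that the limit divides a continuous range of lengths.

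Broad peaks were also strong peaks in their own lists. The authors' fold enrichment, the ratio of signal in a peak to the caller's background, was ranked within each list. Peaks of 10000 bp or longer had a median percentile of 83.7 to 89.1 across the 8 libraries, against 76.9 to 82.5 for peaks of 5000 bp up to that limit, 69.7 to 75.1 for 2000 bp up to 5000 bp and 23.9 to 28.2 for peaks under 1000 bp. In every library the order of these 4 widths was the same. Between 0 and 3 broad peaks per library ranked below the median of their list. The rule did not use enrichment, but the caller drew it and peak length from the same signal, so this order is a description.

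**Figure D2:**
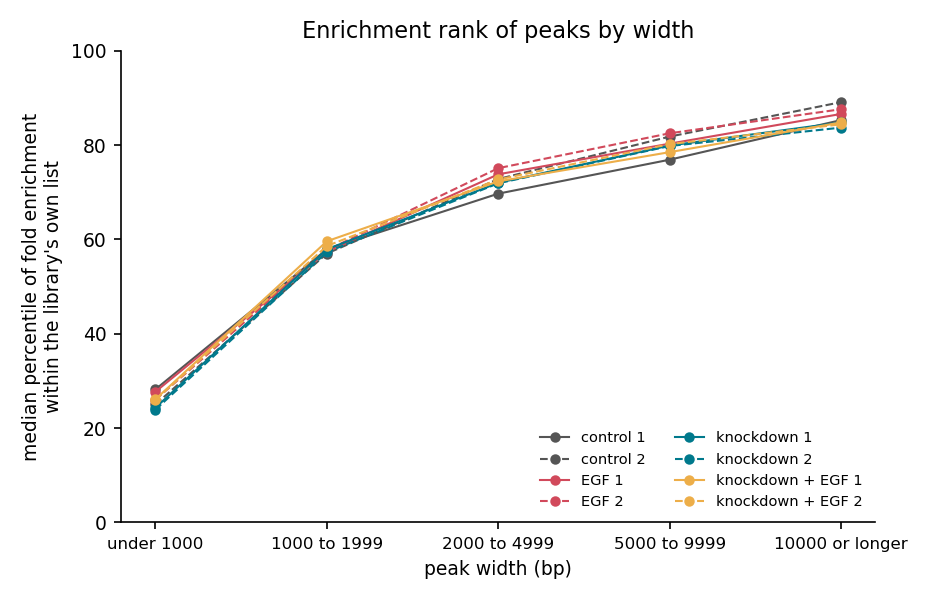
The x axis gives peak width in 5 bands and the y axis the median percentile of the authors' fold enrichment within the library's own list, with 1 line per library. All 8 lines climb with width, from 23.9 to 28.2 for peaks under 1000 bp to 83.7 to 89.1 for peaks of 10000 bp or longer.

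The strength of single domains varied more. Taking the longest piece of a domain in each library, the median percentile over libraries had a median of 81.7 over domains, with 58 domains at 90 or above and 9 under 50. A domain on chromosome 15 from 85482466 to 85522316, 39851 bp long, ranked at 98.6, and the chromosome 11 domain of 63064 bp at 80.0. One on chromosome 19 from 47517696 to 47530444 ranked at 32.9, the lowest of the domains. The 37 domains that reached 10000 bp in all libraries had a median rank of 90.3, against 79.0 for the 71 that reached it in 1 library. In all but that library the pieces ranked for the 71 were shorter than 10000 bp. Shorter peaks had lower median ranks in every list, and the part of width in this difference was not tested.

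Domains tended to lie in acetylated neighbourhoods. The nearest other region was a median of 2063 bp away, against 2829.5 bp for wide regions, 6280 bp for regions whose longest peak reached 2000 but not 5000 bp and 12418 bp for narrower ones, each taken among regions with a peak in all 8 libraries. Within 50000 bp of a domain lay a median of 7 other regions, against 6 for wide regions, 4 for the next class and 3 for the narrowest. There were 54 domains (22.0%) with another domain less than 50000 bp away, in 23 clusters. The largest cluster held 5 domains over 159 kb on chromosome 14 from 26221175 to 26380593, and the next 4 domains over 139 kb on chromosome 11 from 74214885 to 74353524, which includes the longest one. Chromosomes 4 and 11 carried 26 domains each, or 2.16% and 1.86% of their regions with a peak in all 8 libraries, compared with 1.48% over the genome. Chromosome X had 354 such regions and 0 domains.

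The first comparison asks how EGF changed broad domains while Arid1a was intact. Less of the domains was covered with EGF: peaks lay over 75.7% and 88.5% of the domain length in the control libraries and over 71.1% and 71.5% in the EGF libraries. The groups did not overlap. In base pairs the means were 3.06 ± 0.336 Mb without and 2.65 ± 0.0101 Mb with EGF (SD, n = 2 each), a difference of -13.2%, close to the -14.1% of wide regions and the -14.9% of all regions. Control library 1, whose total resembles that of the EGF libraries, covered 2.82 Mb of the domains against their 2.64 and 2.66 Mb.

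Limma compared covered length over the 28146 regions that had peaks in 2 libraries or more, on the scale of log2(covered bp + 200) and with Benjamini-Hochberg adjustment at 0.05. For EGF in control cells limma called 7 domains, all lower, which is 2.86% of the domains beside 3.95% of all tested regions (1.05% higher and 2.9% lower). Since peak length chose the domains, nothing is read from such counts beyond the values themselves. The count changed when a library was left out, in part because all groups share 1 estimate of the spread. The median log2 difference over domains was -0.277 without control library 1 and -0.085 without control library 2. Over all regions it was -0.297 and 0. Without a knockdown library, with or without EGF, the domain median stayed at -0.179, since those libraries do not enter this difference. After quantile normalization limma called 2 higher and 7 lower. The median log2 difference was -0.18 over domains and -0.14 over all regions.

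By overlap of the libraries, 136 domains (55.5%) had less covered length in both EGF libraries than in either control library and 13 had more. Of wide regions 49.0% and 8.2% did so, and of all tested regions 29.1% and 12.4%. Without control library 2 the domain counts were 140 lower and 61 higher, 57.1% and 24.9% beside 32.7% and 32.0% of all tested regions. Without control library 1 there were 218 lower and 14 higher, 89.0% and 5.71% beside 64.8% and 14.4%, with 1 control library left in each case. A domain on chromosome 7 from 130554804 to 130566414 was covered over 8061 and 8889 bp in control cells and 3855 and 3664 bp with EGF, a log2 difference of -1.13 ± 0.11 (SE). Both EGF libraries were below every other library there, with 9270 and 10809 bp in knockdown cells and 6615 and 5938 bp in knockdown cells with EGF. On chromosome 4 from 117944252 to 117955226, covered length was 6677 and 9635 bp in control cells and 3896 and 3690 bp with EGF (log2 difference -1.04 ± 0.17, SE). That domain kept 7154 and 8065 bp in knockdown cells with EGF.

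The next comparison is the same in knockdown cells. Knockdown libraries covered 90.4% and 94.9% of the domain length and those with EGF 77.3% and 79.5%, again without overlap. The means were 3.45 ± 0.119 and 2.92 ± 0.0578 Mb (SD, n = 2 each), a difference of -15.4% in domains, -20.5% in wide regions and -25.2% in all regions. These totals move with the covered length of whole libraries, 46.3 and 48.7 Mb against 34.2 and 36.8 Mb. Limma called 19 domains, all lower (7.76%, beside 6.62% of all tested regions, 0.622% higher and 6.0% lower), and the median log2 difference was -0.22 over domains and -0.32 over all regions. The count changed when any 1 library was left out. Control and EGF libraries do not enter this difference but do enter the shared spread, and without 1 of them the domain median stayed at -0.225. Without 1 of the 4 libraries compared it was -0.247 to -0.179. After quantile normalization limma called 1 higher and 8 lower.

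Covered length did not overlap in 196 domains that were lower with EGF in knockdown cells and 6 that were higher. That is 80.0% and 2.45% of the domains, beside 69.7% and 4.22% of wide regions and 51.9% and 6.40% of all tested regions. The largest difference was on chromosome 4 from 149504487 to 149515085, covered over 7602 and 10520 bp in knockdown cells and 3630 and 3322 bp with EGF (log2 difference -1.32 ± 0.22, SE). Control cells had 7419 and 9271 bp there and EGF cells 3768 and 5317 bp. A domain on chromosome 3 from 51634650 to 51645436 had 10367 and 9500 bp in knockdown cells and 4499 and 4840 bp with EGF, a log2 difference of -1.06 ± 0.16 (SE). In control and EGF cells it had 7797 and 10531 bp, and 7277 and 8618 bp, which overlap.

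**Figure D3:**
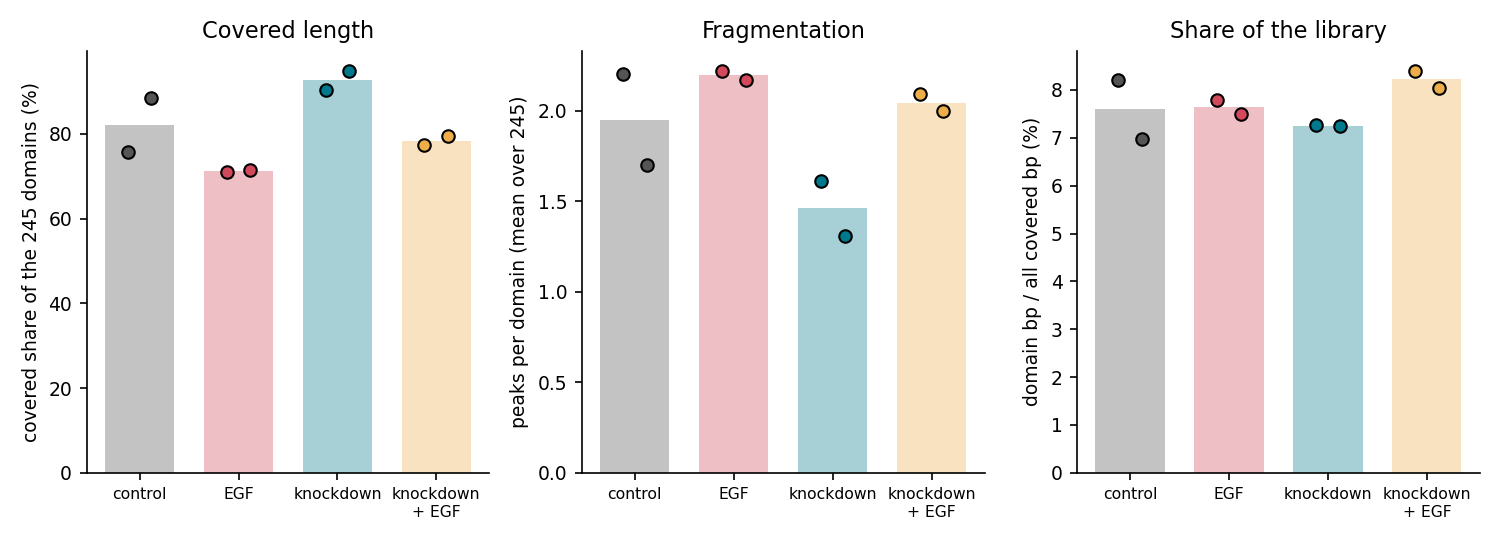
Bars are means of 2 libraries per group and points the single libraries: from left to right the covered share of the total domain length (%), the mean number of peaks per domain, and domain base pairs as a share of all covered base pairs of the library (%). Covered share is lowest in the EGF libraries (71.1% and 71.5%) and highest in the knockdown libraries (90.4% and 94.9%), while the share of the library is lowest at 6.98% in control library 2.

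Over both siRNAs, the 4 EGF-treated libraries covered 2.78 ± 0.157 Mb of the domains and the 4 vehicle libraries 3.25 ± 0.306 Mb (SD, n = 4 each), a difference of -0.467 Mb. To take the measure in libraries whose peak lengths had no part in the choice, domains were chosen in the replicate 1 libraries and measured in the replicate 2 libraries. The limits of the regions still came from all 8 libraries. The 171 domains so found covered 2.09 and 2.3 Mb in the EGF-treated libraries and 2.51 and 2.65 Mb in the vehicle ones (two-sided exact permutation p = 0.333, the smallest that 2 against 2 allow). In the reverse direction, 235 domains covered 2.57 and 2.79 Mb with EGF and 2.73 and 3.25 Mb without (exact permutation p = 0.667). Each side mixed both siRNAs, and no smaller p than 0.333 was possible, so no conclusion is drawn from either test. The sign of the difference was negative both times, and the groups overlapped in the second, where control library 1 had less than library 1 of the knockdown with EGF. Both choices used vehicle as well as EGF-treated libraries. Chosen in the 4 EGF-treated libraries alone, 114 domains covered 1.57 to 1.72 Mb with EGF and 1.6 to 1.89 Mb without, which overlap (difference -0.144 Mb).

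As a share of everything a library covered, domains took on average more and not less with EGF, though the libraries overlap. That share was 7.93 ± 0.384% with EGF and 7.42 ± 0.538% without (SD, n = 4 each), with 8.21% in control library 1 and 6.98% in control library 2. The means without and with EGF were 7.59% and 7.65% in control siRNA cells, and 7.26% and 8.22% in knockdown cells. Covered length with EGF was 0.856 times that with vehicle in domains, 0.825 in wide regions, 0.821 in regions of 2000 bp up to 5000 bp and 0.733 in narrower ones. Over both siRNAs domains thus had the smallest difference of the 4 width classes, although in control cells alone the class of 2000 bp up to 5000 bp was nearer to 1 (0.873 against 0.868). The difference between classes was not tested.

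Limma's mean EGF effect called 50 domains, 1 higher and 49 lower (20.4%, beside 13.0% of all tested regions, 1.79% higher and 11.2% lower). The call count changed when a library was left out. The median log2 difference over domains was -0.258 without control library 1 and -0.151 without control library 2. Over all regions it was -0.337 and -0.151. The split was 6 higher and 21 lower after quantile normalization, which moved the median over all regions from -0.25 to 0.04 and that over domains from -0.20 to -0.02. On that scale the median domain lay near 0, with single domains called on both sides of it.

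**Figure D4:**
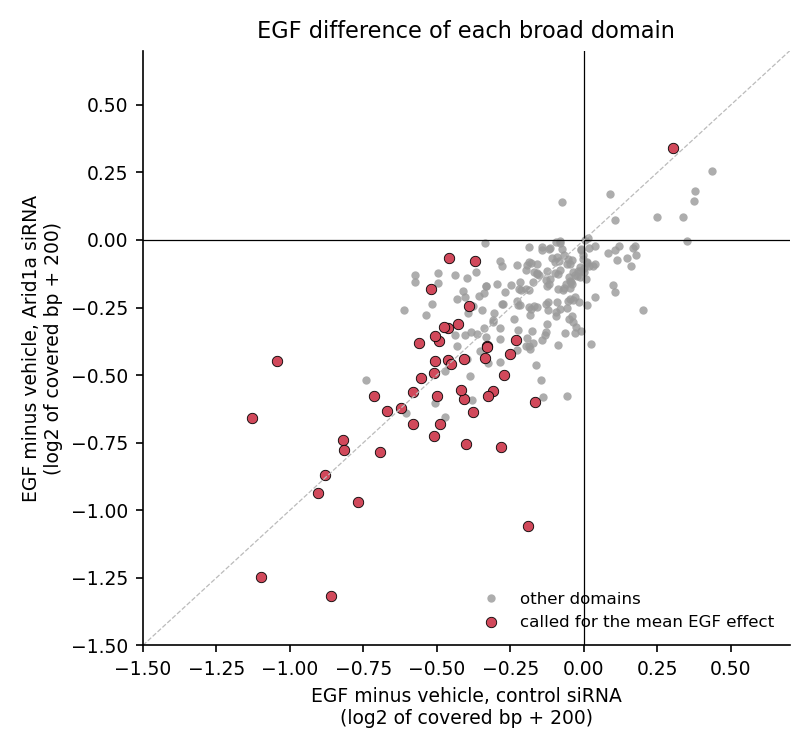
Each point is 1 of the 245 domains, with its EGF difference in control siRNA cells on the x axis and in Arid1a siRNA cells on the y axis, both on the scale of log2(covered bp + 200), and red points were called by limma for the mean EGF effect. Of the 50 called domains 49 lie below 0 on both axes and 1 above 0 on both, which follows largely from calling them on the mean of the plotted differences.

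In 60 domains (24.5%) all 4 EGF-treated libraries were below all 4 vehicle libraries, beside 14.0% of all tested regions and 23.9% of wide regions. Without control library 1 there were 154 such domains, 62.9% beside 31.2% of all tested regions. The domain with the largest mean difference, on chromosome 15 from 88684467 to 88700335, was covered over 10860 and 12812 bp in control cells and 13755 and 14220 bp in knockdown cells. With EGF it kept 5640 and 5180 bp, and 6784 and 4903 bp, a log2 difference of -1.17 ± 0.12 (SE). In EGF library 1 a central pair of blocks remained, from 3865 to 5756 bp and 7486 to 11235 bp after the domain start. The first block began 3865 to 3972 bp after the start in all 4 EGF-treated libraries, and 0 to 283 bp after it in the vehicle libraries. The first 1522 bp covered in all vehicle libraries, from 88684750 to 88686271, had no peak in any EGF-treated library.

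A domain on chromosome 5 from 37281135 to 37296707 was about as even within groups. It had 14186 and 13587 bp in control cells, 13244 and 15483 bp in knockdown cells, 7391 and 7238 bp in EGF cells and 7339 and 7414 bp in knockdown cells with EGF (log2 difference -0.92 ± 0.07, SE). The EGF-treated libraries differed from each other by less than 200 bp. This domain also held the longest stretch covered in all vehicle and in no EGF-treated library, 2306 bp from 37292543 to 37294848.

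The reverse pattern was seen in 3 domains (1.22%, beside 2.33% of all tested regions). On chromosome 2 from 18858327 to 18869263, the 1 domain called higher, covered length was 8090 and 8397 bp in control cells and 7683 and 9030 bp in knockdown cells, against 10387 and 10044 bp with EGF and 10847 and 10384 bp with both (log2 difference 0.32 ± 0.07, SE). At the start of the domain, a stretch of 553 bp from 18858880 to 18859432 was covered in all EGF-treated and no vehicle library. At its end, 656 bp from 18868518 to 18869173 were covered in both knockdown libraries with EGF and in neither knockdown library. The other 2 were chosen after their values were seen. On chromosome 12 from 110163577 to 110180555 covered length was 11231 to 15204 bp without and 15920 to 16979 bp with EGF, and on chromosome 11 from 68007671 to 68019894 it was 8516 to 11064 bp without and 11150 to 12203 bp with EGF.

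That chromosome 11 domain ends 1372 bp before another, from 68021267 to 68032463, which had the opposite pattern in control siRNA cells. The second domain was covered over 10189 and 10443 bp in control cells and 7589 and 7319 bp with EGF, in 2 pieces each instead of 1. In knockdown cells it had 11074 and 10773 bp, and 10514 and 10350 bp with EGF, always in 1 piece. It had the smallest adjusted p of all domains for the interaction, the test of whether the EGF difference depends on the siRNA, but did not pass (log2 difference 0.39 ± 0.10, SE). Limma called 0 domains and 0 of all tested regions for the interaction. At an unadjusted p under 0.05 it had 13 of the 245 domains, beside 8.97% of all tested regions. With peaks above the pooled median score alone, limma called 7 (4 higher, 3 lower; 2.86%, beside 5.58% of all regions), and without control library 2 it called 1. The median interaction over domains was -0.05, and it turned to 0.05 without control library 1.

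**Figure D5:**
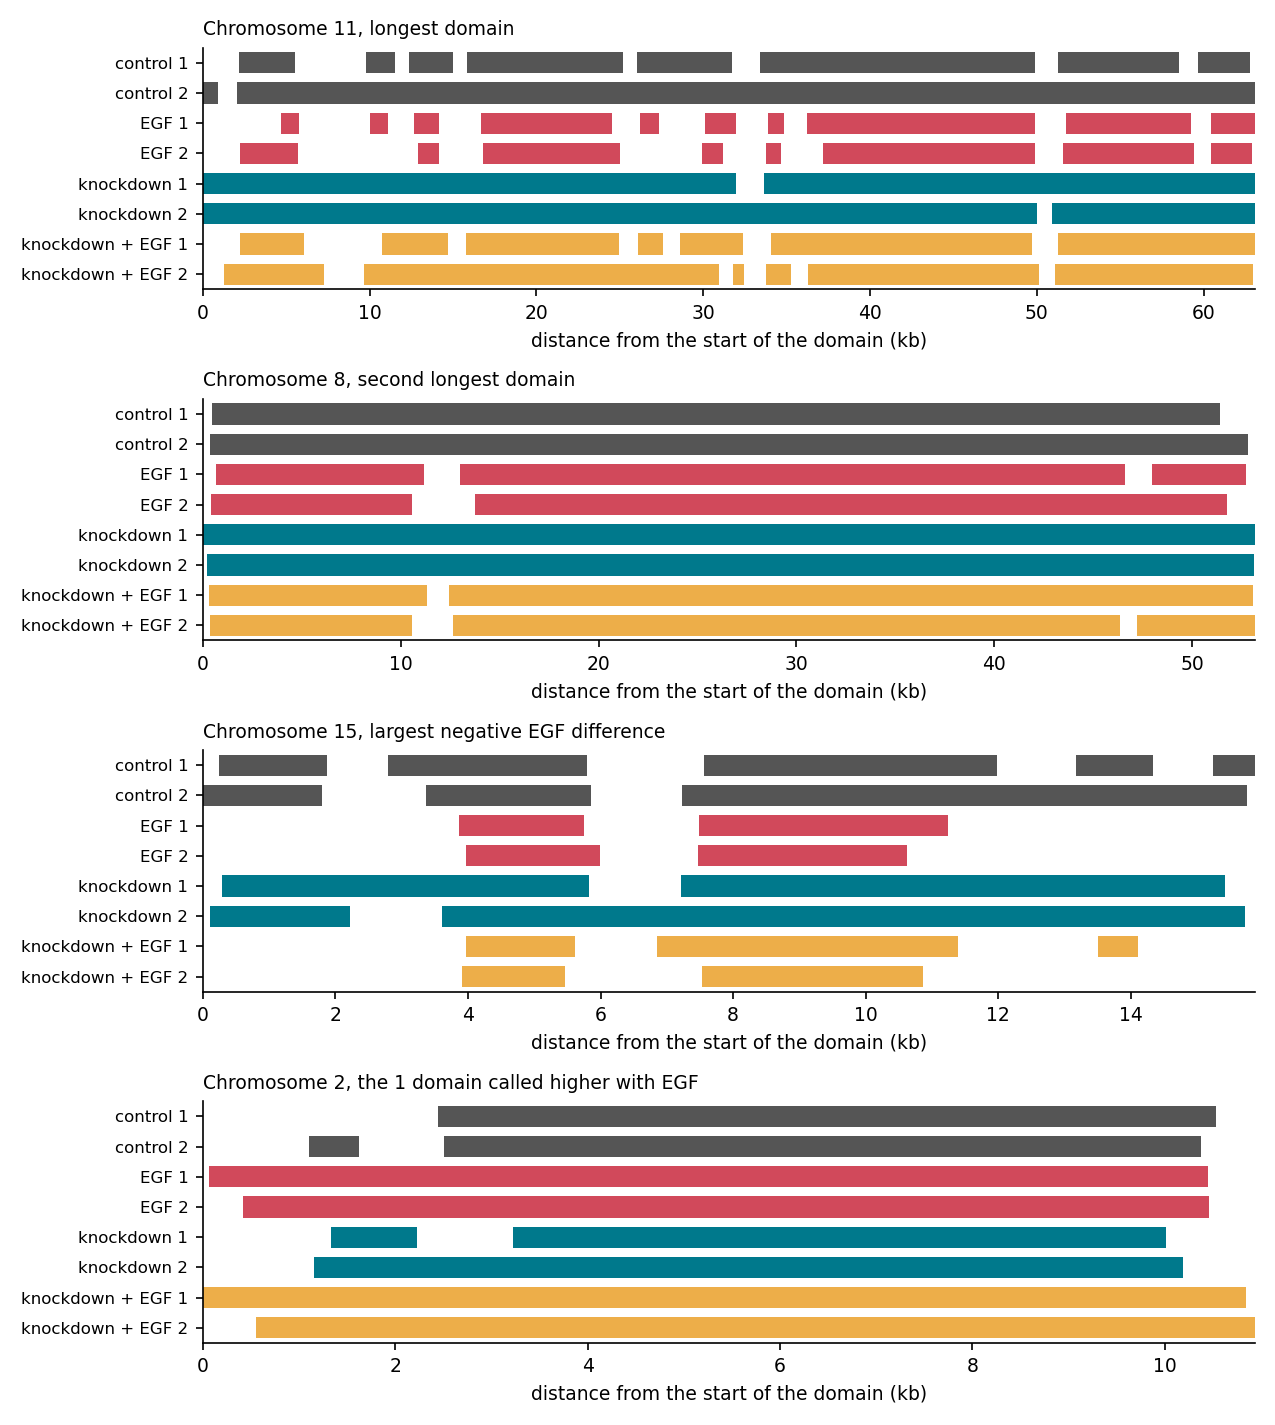
Filled bars are peaks of each of the 8 libraries along 4 domains, with distance from the start of the domain in kb on the x axis and 1 row per library, coloured by group. The chromosome 8 domain is broken near 11 to 13 kb in all 4 EGF-treated libraries and in no vehicle library, the chromosome 15 domain keeps its central blocks with EGF, and the chromosome 2 domain begins earlier with EGF.

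Sequence left uncovered lay both inside domains and at their ends. Domains were in 2.20 and 1.70 pieces on average in control cells, 2.22 and 2.17 with EGF, 1.61 and 1.31 in knockdown cells, and 2.09 and 2.00 with both. Those in 1 piece numbered 65 and 127 in control cells, 66 and 68 with EGF, 140 and 182 in knockdown cells, and 77 and 90 with both. Control library 1 was as fragmented as the EGF libraries, so the control and EGF groups overlapped in pieces while the knockdown groups did not. Of the uncovered base pairs, 44.8% to 52.7% lay in internal gaps in each library and the rest at the ends. The gaps measured 801 bp at the least, which is the smallest spacing of peaks in the deposited lists, with medians of 970 to 1536.5 bp per library. A piece is thus 1 deposited peak, and a break shorter than that spacing would not show.

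Breaks in the EGF-treated libraries often overlapped sequence that the partner library also left uncovered. In EGF library 1, 262 of 300 internal gaps (87.3%) held sequence that was also uncovered in EGF library 2, and in the knockdown libraries with EGF it was 195 of 267 and 200 of 246. In the control libraries it was 132 of 293 and 157 of 171. The share was lower, 37 of 149 and 34 of 77, in the knockdown libraries, which also leave less of a domain uncovered. Any shared uncovered sequence counted, and the share for gaps placed at random was not worked out. Only 0.749% to 7.79% of the gaps of a library were open in all 8 libraries. Stretches covered in all 4 vehicle and in no EGF-treated library summed to 58.4 kb (1.57% of the domain length) in 66 domains, and the reverse to 1.8 kb in 3 domains, counting domains with a stretch of at least 200 bp. In wide regions with a peak in all libraries these shares of length were 2.06% and 0.220%.

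The 53163 bp domain on chromosome 8 shows such a break. It was a single peak of 50947 and 52432 bp in control cells and of 53153 and 52904 bp in knockdown cells. With EGF it fell into 3 and 2 pieces, and in knockdown cells with EGF into 2 and 3. A gap opened in all 4 EGF-treated libraries, and the part of it shared by them and covered in every vehicle library ran over 1080 bp from 124815660 to 124816739. Covered length itself moved little there, with a log2 difference of -0.08 ± 0.15 (SE).

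The 63064 bp domain on chromosome 11 was in 2 pieces in control library 2 and in both knockdown libraries. It was in 8 pieces in control library 1, 10 and 8 in the EGF libraries, and 7 and 6 in the knockdown libraries with EGF. Covered length was 49796 and 61879 bp in control cells, 39273 and 38159 bp with EGF, 61346 and 62169 bp in knockdown cells, and 49659 and 55165 bp with both. The EGF libraries were the lowest, and control library 1 fell within the range of the knockdown with EGF. Its neighbour from 74323155 to 74353524 stayed between 27557 and 30310 bp in all 8 libraries.

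Of the 10 domains with the greatest mean covered length, limma called 1 for the mean EGF effect, on chromosome 5 from 30889051 to 30923029, with 25606 and 30033 bp in control cells, 19443 and 18082 bp with EGF, 32342 and 29770 bp in knockdown cells, and 25573 and 22156 bp with both (log2 difference -0.47 ± 0.11, SE). The domain on chromosome 15 from 85482466 to 85522316 ranged from 32888 to 39630 bp over all libraries. That on chromosome 2 from 115868441 to 115902786 ranged from 28295 to 33485 bp, with its lowest value in control library 1. A further one on chromosome 2, from 147845202 to 147874962, had 26824 and 27012 bp in the EGF libraries and 28517 to 29761 bp in the other 6. The domain of chromosome 7 from 53363694 to 53396538 was lowest in EGF library 2, at 22957 bp, as was one of chromosome 15 from 73554672 to 73583857, at 21835 bp. On chromosome 8 from 125171994 to 125207174 EGF library 2 had 19515 bp and control library 1 had 19556 bp.

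A further comparison asks what knockdown of Arid1a did without EGF. Knockdown libraries covered more of the domains than control libraries, 3.36 and 3.53 Mb against 2.82 and 3.29 Mb, a difference of 12.8% in domains and 16.6% in all regions. Limma called 0 of the 245 domains, beside 1.37% of all tested regions. It had 39 of the 245 at an unadjusted p under 0.05, beside 12.7% of all tested regions. Without control library 2 it called 36, all higher (14.7%, beside 11.1% of all regions), and 0 without any other single library. Covered length was higher without overlap in 132 domains and lower in 3. That is 53.9% and 1.22%, beside 47.7% and 4.78% of wide regions and 33.5% and 6.58% of all tested regions. Without control library 1, which leaves control library 2 with a total like the knockdown libraries, 134 were higher and 53 lower, 54.7% and 21.6% beside 36.9% and 31.7% of all tested regions. The median log2 difference over domains was then 0.05, against 0.16 with all libraries, and it was 0.004 after quantile normalization.

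Nearest to the threshold, without passing it, was a domain of chromosome 2 from 164224601 to 164236767 with 9974 and 12061 bp in knockdown cells and 6434 and 5988 bp in control cells (log2 difference 0.80 ± 0.13, SE). In EGF cells it had 5770 and 5461 bp and with both 6603 and 7984 bp, so every knockdown library was above every library with control siRNA. Single peaks of 10000 bp or longer in both knockdown and neither control library were found in 30 domains, and the reverse in 0. That length chose the domains, and it was reached in 158 and 204 of them in the knockdown libraries and 70 and 147 in the control libraries. Nothing is therefore read from the 30 and 0. A domain on chromosome 4 from 45444426 to 45469275, among the most fragmented with up to 7 pieces, was covered over 10342 and 19520 bp in control cells and 20617 and 22626 bp in knockdown cells. It had 10791 and 9638 bp with EGF and 16006 and 14742 bp with both.

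Under EGF, where the libraries compared have like totals, domains were covered more with knockdown. The EGF libraries had 2.64 and 2.66 Mb and the knockdown libraries with EGF 2.88 and 2.96 Mb, without overlap. All covered sequence was 33.9 and 35.5 Mb against 34.2 and 36.8 Mb, which overlap. The mean was 10.0% higher in domains, 7.17% in wide regions and 2.11% in regions of 2000 bp up to 5000 bp, and in narrower regions the difference was -1.62%. As a share of the library, domains took 7.80% and 7.49% with EGF and 8.40% and 8.04% with EGF and knockdown. No test of these totals is given, since peak lengths of the same libraries chose the domains.

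The size of this gap moved with the choice of domains, in which the knockdown libraries weigh most. Where domains were chosen in the 4 libraries with control siRNA (154 domains), the knockdown libraries with EGF had 2.04 and 2.1 Mb and the EGF libraries 1.92 and 1.95 Mb. Chosen in the EGF libraries alone (77 domains), the values were 1.23 and 1.25 Mb against 1.2 and 1.19 Mb, a difference of 0.0481 Mb. The sign was the same in each case, although the last choice favours the EGF libraries. Limma called 0 of the 245 domains, beside 0.661% of all tested regions. It had 36 of the 245 at an unadjusted p under 0.05, beside 10.8% of all tested regions. The median log2 difference was 0.12 over domains and 0 over all regions, and it was 0.01 over domains after quantile normalization. Without control library 1 or 2, which do not enter this difference, the median over domains stayed at 0.122.

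Per domain, 130 had more covered length in both knockdown libraries with EGF than in either EGF library and 32 had less, 53.1% and 13.1% beside 20.8% and 17.1% of all tested regions and 39.3% and 16.2% of wide regions. Stretches covered in both knockdown libraries with EGF and in neither EGF library summed to 147 kb of the domains, against 27.3 kb for the reverse. These were 3.96% and 0.733% of the domain length, beside 3.57% and 1.37% in wide regions with a peak in all libraries. The longest stretch of the first kind in a domain, 2325 bp on chromosome 8 from 111231056 to 111233380, lay inside a domain from 111227011 to 111239582. Nearest to the threshold, again without passing it, was the domain on chromosome 11 from 68021267 to 68032463 described above, with 10514 and 10350 bp against 7589 and 7319 bp (log2 difference 0.47 ± 0.07, SE). Over both EGF states, 22 domains had more covered length in all 4 knockdown libraries than in all 4 with control siRNA (8.98%, beside 3.98% of all tested regions), and 0 had less (beside 0.995%). In wide regions these shares were 6.77% and 0.398%.

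Within domains the libraries shared most of their covered base pairs. The base-pair Jaccard index, shared over total covered sequence, was 0.823 to 0.897 for the 4 same-group pairs, 0.783 to 0.889 for the 8 other pairs of the same EGF state and 0.733 to 0.829 for the 16 pairs of different EGF state. The ranges overlap, and since all pairs share libraries and the domains were chosen by length, no test is given.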

How the data were processed

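The authors deposited 1 peak list for each library and none for pooled replicates, as BED files with 9 columns. The submitters' processing notes name build mm9 and, with no role for any, deepTools 3.0.2, MACS2 2.1.1.20160309.0, SAMtools and Bowtie2 2.3.4.2. Caller settings and any use of an input library are not given in the sources. Each deposited peak has a fold enrichment (a ratio of signal to background, by the caller), a −log10 p, a −log10 q and a score, which is 10 times the −log10 q without its decimals. These are the authors' values and only rank peaks within a list, except in 1 alternative that pools scores. The lists hold no read counts, so depth is unknown and no counting interval is given.

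Peaks were merged at 1 bp overlap. The test of covered length used limma 3.58.1 in R 4.3.3 (empirical Bayes with a trend, 4 group means, log2(covered bp + 200), peaks required in 2 libraries or more, adjusted p under 0.05). A region without a peak has covered length 0, which does not mean absence of acetylation. Scripts were tested on simulated data. Other steps used matplotlib 3.10.9, SciPy 1.17.1, pandas 2.3.3 and NumPy 2.4.6 in Python 3.11.15. The members, lists and tests were chosen with earlier results of these data known. Named domains are the 10 with the largest mean covered length, up to 3 per direction with the largest difference among those called in each comparison (or the one with the smallest adjusted p), those next to the limit, and the longest and most fragmented, beside a few named as examples of clusters, stretches or extremes. Gene lists planned for an mm9 annotation were not analysed here. Coordinates are mm9, 1-based.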

Additional observations from a re-analysis of the deposited data

Results flagged for a closer look

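Of the 245 domains, 2 moved in opposite directions with EGF under the 2 siRNAs, with both libraries of each group on the same side. The share of all tested regions with this pattern was not worked out, so nothing is read from the count. The difference was not tested apart from limma's interaction, which called neither of them with all libraries. On chromosome 11 from 34816253 to 34827461, covered length was 9506 and 9680 bp in control cells and 9827 and 10496 bp with EGF, a mean difference of 568.5 bp, but 10252 and 10201 bp in knockdown cells and 9923 and 9839 bp with both, a mean difference of -345.5 bp. The gap between these differences was 914 bp. On chromosome 15 from 78672711 to 78688971 it was 1506.5 bp: 13800 and 16149 bp in control cells, 16261 and 16210 bp with EGF, 15904 and 15999 bp in knockdown cells, and 15692 and 15720 bp with both. That value rested on control library 1: without it the gap was 332 bp, and without control library 2 it was 2681 bp. For the chromosome 11 domain the gap was 827 and 1001 bp without control library 1 and 2.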

How the results depend on the processing

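The number of domains was 436 with a limit of 8000 bp and 77 with 15000 bp, and 198 to 246 when 1 library was left out. The EGF difference of -0.467 Mb in covered length was -0.611 to -0.373 Mb without 1 library, but turned to 0.507 percentage points as a share of the library. That between the knockdown with EGF and EGF, 0.266 Mb, was 0.225 to 0.307 Mb without 1 library, 0.0481 Mb with domains chosen in EGF libraries and 0.573 percentage points as a share. Its alternatives, and non-overlap counts without a control library, were chosen after seeing the data.

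Limma's count of called domains for EGF in control cells, 7, was 12 on lists of equal length, 11 with peaks above the pooled median score and 0 to 38 without 1 library. For EGF in knockdown cells, 19, it was 9 after quantile normalization and 0 to 46 without 1 library. For the mean EGF effect, 50, it was 27 after quantile normalization, 32 with peaks above the pooled median score and 12 to 106 without 1 library. For knockdown without EGF, 0, it was 1 with a pseudocount of 50, 4 on lists of equal length, 6 above the pooled median score, 1 with regions merged across 1000 bp and 0 to 36 without 1 library. For knockdown with EGF, 0, it was 2 with a pseudocount of 50, 2 after quantile normalization, 2 on lists of equal length, 8 above the pooled median score and 0 to 5 without 1 library. For the interaction, 0, it was 7 above the pooled median score (2.86%, beside 5.58%). These counts also changed when 1 library was left out, which alters the spread shared by all comparisons. Where 1 library of a group is left, it is assumed to vary like the others.

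With the replicate number as a block the count for EGF in control cells was 0, as over all tested regions. For EGF in knockdown cells it was 13 (5.31%, beside 4.18% of all tested regions). For the mean EGF effect it was 42 (17.1%, beside 10.5%). The libraries share only a number: deviations of same-numbered libraries correlated at -0.009 to 0.032. Apart from leaving out a library, 43 values stayed within 1.5 times or 1 SD of the reported one, 19 did not and 1 turned in sign. Unknown depth limits every comparison of covered length between the libraries.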
